A study of Mus musculus with 30 samples.

Results

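The 5 mitochondrial tRNA genes mt-Tw, mt-Ta, mt-Tn, mt-Tc and mt-Ty lie side by side in the mouse mitochondrial genome, in a block called the WANCY cluster after the one-letter codes of the amino acids that their tRNAs carry (tryptophan, alanine, asparagine, cysteine and tyrosine). A read was given to one of them when its whole sequence was found without a mismatch, in the sense direction, in the mature tRNA, that is, the gene's transcript in GENCODE vM21 with CCA added. Of 309306 distinct sequences that matched any RNA of the reference, 3663 belonged to these 5 of the 22 mitochondrial tRNAs, which together held 17451. mt-Tw held 479 distinct sequences, mt-Ta 748, mt-Tn 814, mt-Tc 830 and mt-Ty 792. Together they had 186649 reads in PANDORA-seq and 614830 reads in traditional-seq.

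Small RNAs of the cortex of 6-month-old mice were sequenced in 30 libraries. The study's methods name the prefrontal cortex. Mice were WT or hemizygous 5xFAD (AD), which express human amyloid precursor protein and presenilin with familial mutations in neurons, from the Thy1 promoter, and both were littermates of both sexes on a congenic C57BL/6J background. PANDORA-seq libraries (8 WT and 8 AD) were made from RNA whose ends had been repaired by T4 polynucleotide kinase and which had been treated with AlkB, which removes certain methyl groups from bases, whereas traditional-seq libraries (7 WT and 7 AD) were made from untreated RNA.

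Mitochondrial DNA is copied into long transcripts of both strands, and the tRNAs between the messenger RNAs are cut out of them, after which an enzyme adds the CCA end that is not encoded. mt-Tw is read in the direction of most mitochondrial genes, whereas mt-Ta, mt-Tn, mt-Tc and mt-Ty are read in the opposite direction, and a start site of replication lies between mt-Tn and mt-Tc. Fragments of tRNAs (tsRNAs) arise by cuts in the loops or stems of the folded molecule, and base modifications and the chemical state of the cut ends decide whether a library protocol can read them.

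In GRCm38 coordinates mt-Tw occupies chrM:4950-5016 on the + strand, mt-Ta chrM:5018-5086, mt-Tn chrM:5089-5159, mt-Tc chrM:5192-5257 and mt-Ty chrM:5260-5326, the last 4 on the - strand. The gap between mt-Tn and mt-Tc is 32 bases, whereas 1 or 2 bases separate the other neighbours of the cluster. All 5 are single-exon non-coding genes between mt-Nd2, whose end overlaps mt-Tw by 2 bases, and mt-Co1, which starts after a gap of 1 base. The mature tRNAs are shown whole because every fragment below is a stretch of them. Capitals mark the anticodon and the added CCA, and bases are counted from 1 at the 5′ end.
mt-Tw: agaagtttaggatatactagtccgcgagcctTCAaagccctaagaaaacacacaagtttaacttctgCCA
mt-Ta: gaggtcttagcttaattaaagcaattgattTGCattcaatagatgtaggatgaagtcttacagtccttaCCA
mt-Tn: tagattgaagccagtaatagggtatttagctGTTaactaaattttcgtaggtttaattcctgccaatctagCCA
mt-Tc: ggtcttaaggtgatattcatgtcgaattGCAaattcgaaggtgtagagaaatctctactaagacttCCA
mt-Ty: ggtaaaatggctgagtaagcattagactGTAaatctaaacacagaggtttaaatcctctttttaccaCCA

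The single most abundant fragment of each tRNA, by mean RPM (the reads-per-million level, relative to all reads of the library), was a different one in each protocol for all 5 tRNAs. These fragments are printed to show where the reads of each tRNA start and end, again with anticodon and CCA bases in capitals. In PANDORA-seq they were the following 5 sequences, of which those of mt-Tw and mt-Ty end in the tail 1 base short of the full CCA.
mt-Tw bases 54 to 69: aagtttaacttctgCC
mt-Ta bases 17 to 48: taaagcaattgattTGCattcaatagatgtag
mt-Tn bases 1 to 37: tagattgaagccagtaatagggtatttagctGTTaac
mt-Tc bases 1 to 29: ggtcttaaggtgatattcatgtcgaattG
mt-Ty bases 51 to 69: aaatcctctttttaccaCC
In traditional-seq they were shorter stretches for mt-Ta and mt-Tn, the same stretch of mt-Tw with the full CCA, and stretches across or up to the anticodon for mt-Tc and mt-Ty.
mt-Tw bases 54 to 70: aagtttaacttctgCCA
mt-Ta bases 40 to 55: tagatgtaggatgaag
mt-Tn bases 42 to 60: ttttcgtaggtttaattcc
mt-Tc bases 25 to 54: aattGCAaattcgaaggtgtagagaaatct
mt-Ty bases 12 to 31: tgagtaagcattagactGTA

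PANDORA-seq libraries held 54926347 to 105876141 reads of 15 to 45 nt and traditional-seq libraries 9370669 to 17053412 reads of 15 to 42 nt, so that 3 reads corresponded to 0.0283 to 0.0546 RPM in the former and 0.176 to 0.320 RPM in the latter. Hairpins of neuronal miRNAs, the markers of the labelled tissue, summed to 1674 to 6897 RPM in PANDORA-seq and 87659 to 291876 RPM in traditional-seq. The 2 hairpins of microglia and leukocytes summed to 0.726 to 1.70 RPM and 5.45 to 59.5 RPM. A pair of traditional-seq libraries, WT replicate 7 and AD replicate 4, stood apart by 3310 and 7913 RPM of muscle miRNA hairpins, against 270 to 1206 RPM in the other 12. In PANDORA-seq 3 AD libraries stood apart by the same hairpins, AD replicate 1 with 192 RPM, AD replicate 6 with 79.7 RPM and AD replicate 7 with 32.96 RPM, against 2.01 to 6.85 RPM in the other 13. Mir122, a liver miRNA hairpin, had 43.2 to 258 RPM in PANDORA-seq and 13.6 to 755 RPM in traditional-seq. There it was highest in the same pair, with 755 RPM in AD replicate 4 and 314 RPM in WT replicate 7, followed by 305 RPM in AD replicate 3. In PANDORA-seq the reads of 43 to 45 nt made up 11.2% to 21.5% of a WT library and 2.13% to 10.7% of an AD library, with no overlap between the genotypes.

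The first question was how abundant the fragments of each tRNA were. Of all mitochondrial tRNA reads of a library, the 5 tRNAs held 0.415% to 1.11% in PANDORA-seq (median 0.706%) and 4.76% to 11.4% in traditional-seq (median 6.99%). Per nucleotide of the mature tRNA, mt-Ty, the tyrosine tRNA, was highest in PANDORA-seq with 0.654 ± 0.423 RPM per nt (SD, n = 16) and held rank 12 of the 22 mitochondrial tRNAs. It was followed by mt-Ta (0.546 ± 0.265, rank 13), mt-Tn (0.310 ± 0.145, rank 17), mt-Tc (0.285 ± 0.126, rank 18) and mt-Tw (0.146 ± 0.0966, rank 20). In traditional-seq mt-Ty was again highest with 19.6 ± 10.4 RPM per nt (SD, n = 14, rank 3). After it came mt-Ta (17.4 ± 4.99, rank 6), mt-Tc (7.07 ± 1.47, rank 10), mt-Tw (6.95 ± 6.48, rank 11) and mt-Tn (0.556 ± 0.198, rank 20). The level of mt-Ty in traditional-seq includes sequences that also occur in another transcript, and without them, an alternative chosen after seeing the data, it was 1.70 ± 0.591 RPM per nt, below mt-Ta (17.4 ± 4.99), mt-Tc (7.04 ± 1.47) and mt-Tw (6.95 ± 6.48), whereas in PANDORA-seq it was 0.572 ± 0.328. The asparagine tRNA thus stood in the middle of the 5 in PANDORA-seq and last in traditional-seq.

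Neighbours in this order were compared within libraries by exact sign-flip permutation tests on log2 RPM per nt, adjusted over all pairs of the 22 mitochondrial tRNAs, of which 93.1% differed in PANDORA-seq and 89.2% in traditional-seq. In PANDORA-seq mt-Ta was above mt-Tn by 0.75 (SD 0.42, log2, 16 of 16 libraries) and mt-Tc above mt-Tw by 1.03 (SD 0.56, 16 of 16 libraries), each with an adjusted p of 3.87e-05 in the permutation test. mt-Ty and mt-Ta differed by 0.17 (SD 0.50, 8 of 16 libraries, permutation test, adjusted p = 0.219) and mt-Tn and mt-Tc by 0.15 (SD 0.58, 11 of 16 libraries, adjusted p = 0.308), both less than the spread between libraries. In traditional-seq mt-Ta was above mt-Tc by 1.26 (SD 0.51, 14 of 14 libraries) and mt-Tw above mt-Tn by 3.27 (SD 0.79, 14 of 14 libraries), each with an adjusted p of 0.000158 in the permutation test. The steps from mt-Ty to mt-Ta (0.05, SD 0.92, permutation test, adjusted p = 0.86) and from mt-Tc to mt-Tw (0.43, SD 1.05, adjusted p = 0.166) lay within the spread.

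**Figure D1:**
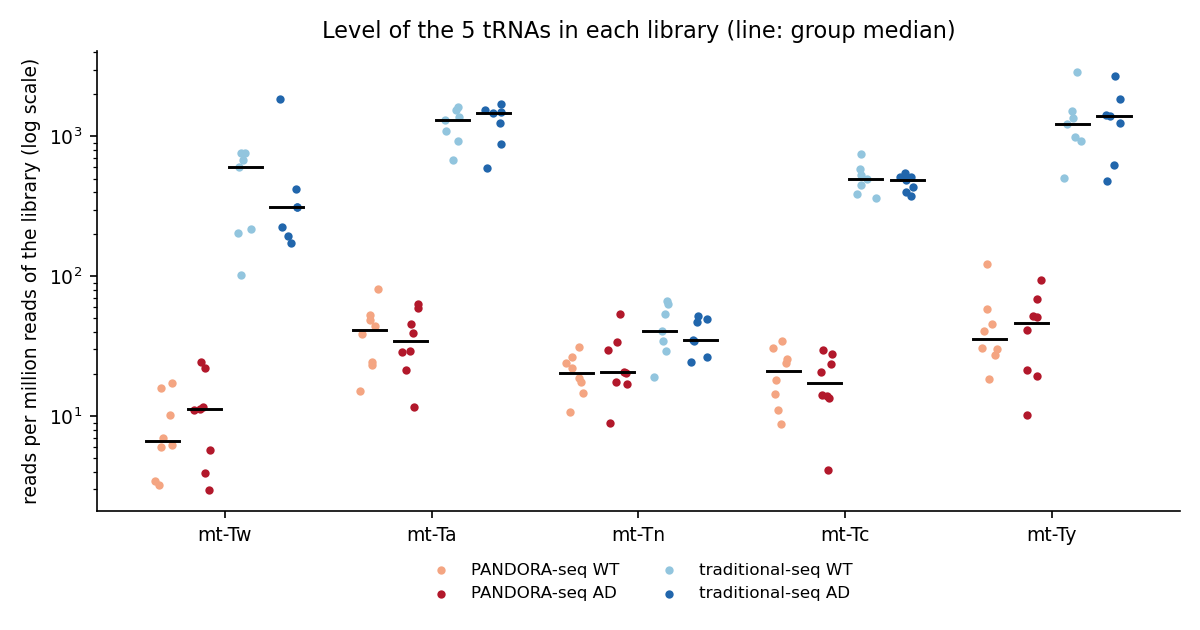
Level of the 5 tRNAs in each library, in RPM on a log scale, with 1 point per library and a line at each group's median. In traditional-seq (blue) mt-Ta, mt-Tc, mt-Ty and mt-Tw lie far above PANDORA-seq (orange and red), mt-Tn ranges from 18.9 to 66.5 RPM in traditional-seq and from 8.88 to 53.6 RPM in PANDORA-seq, and WT and AD libraries overlap for every tRNA.

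The next comparison asked whether enzyme treatment changed which of these fragments were read. All 5 tRNAs were lower in PANDORA-seq than in traditional-seq, and 4 of them did not overlap between protocols, whereas mt-Tn did, beside 20.8% of 1121 RNAs and 50.0% of the 22 mitochondrial tRNAs whose ranges lay wholly lower in PANDORA-seq over reads of 15 to 42 nt. mt-Tw had 2.97 to 24.6 RPM in PANDORA-seq (medians 6.64 in WT and 11.2 in AD) and 102 to 1848 RPM in traditional-seq (medians 603 and 311). mt-Ta had 11.7 to 81.2 RPM in PANDORA-seq (medians 41.6 and 34.3) and 598 to 1712 RPM in traditional-seq (medians 1312 and 1478). mt-Tc had 4.11 to 34.5 RPM (medians 20.96 and 17.4) and 363 to 749 RPM (medians 497 and 490). For these 3 tRNAs no PANDORA-seq library reached the lowest traditional-seq library. The same held for mt-Ty, with 10.3 to 123 RPM in PANDORA-seq (medians 35.6 and 46.1) and 482 to 2902 RPM in traditional-seq (medians 1227 and 1396), but not without its sequences that also occur in another transcript, where the ranges were 0.128 to 1.26 and 0.870 to 3.01 RPM per nt and overlapped. mt-Tn overlapped, with 8.88 to 53.6 RPM (medians 20.5 and 20.6) against 18.9 to 66.5 RPM (medians 40.9 and 34.8).

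Over reads of 15 to 42 nt, with genotype in the model and all reads of the library as its size, edgeR's quasi-likelihood test called 5 of the 5 lower in PANDORA-seq, beside 40.9% of the 1121 RNAs tested called lower and 47.7% called higher. The log2 differences (PANDORA-seq minus traditional-seq) were -5.44 for mt-Tw (SE 0.42, Benjamini-Hochberg adjusted p = 4.1e-15), -4.94 for mt-Ty (SE 0.36, adjusted p = 1.04e-15), -4.90 for mt-Ta (SE 0.29, adjusted p = 9.45e-19) and -4.56 for mt-Tc (SE 0.27, adjusted p = 9.39e-19). mt-Tn differed by -0.71 (SE 0.24, edgeR, adjusted p = 0.00621). Without sequences that also occur in another transcript, which hold most traditional-seq reads of mt-Ty, an alternative chosen after seeing the data, the difference of mt-Ty was -1.65 (SE 0.29, 95% interval -2.24 to -1.07, edgeR, adjusted p = 2.08e-06). The median over all RNAs tested was 0.43, so that relative to it mt-Tn, too, lay lower. The call of mt-Tn depended on the scale. With TMM factors, which moved the median over all RNAs to 0.95, its difference was -0.23 (edgeR, adjusted p = 0.296), and with only the matched reads as library size, which moved that median to 2.73, it was 1.32 (edgeR, adjusted p = 4.06e-07). On that last scale 238 RNAs were lower and 729 higher, against 458 and 535 on the scale of all reads. With all their sequences, mt-Tw, mt-Ta, mt-Tc and mt-Ty kept their direction and their calls on all 3 scales. Without its sequences that also occur in another transcript, mt-Ty was fitted on the scale of all reads only. Among the other mitochondrial RNAs, 1 of the 4 other - strand tRNAs was called lower and 2 higher, 8 of the 13 other + strand tRNAs lower and 3 higher, and both rRNAs higher.

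Levels were also read by length. At 15 to 24 nt mt-Ta had 6.32 ± 3.65 RPM in PANDORA-seq (SD, n = 16) and 1183 ± 371 RPM in traditional-seq (SD, n = 14). At 25 to 34 nt it had 16.5 ± 9.87 RPM and 64.5 ± 26.3 RPM. At 35 to 40 nt it had 10.5 ± 4.82 RPM and 3.96 ± 2.50 RPM, with overlapping ranges of 3.03 to 19.1 RPM and 0.207 to 8.94 RPM. Longer fragments of mt-Tn were seen almost only after enzyme treatment, with 9.65 ± 6.04 RPM at 35 to 40 nt in PANDORA-seq, where no library was under 2.99 RPM, and at most 0.387 RPM in traditional-seq. mt-Tc differed at both shorter classes, with 2.14 ± 1.42 RPM in PANDORA-seq and 283 ± 75.7 RPM in traditional-seq at 15 to 24 nt and 9.39 ± 4.81 RPM and 199.7 ± 75.4 RPM at 25 to 34 nt. mt-Ty had 21.5 ± 20.1 RPM and 1285 ± 726 RPM at 15 to 24 nt and 7.75 ± 5.17 RPM and 77.4 ± 30.7 RPM at 25 to 34 nt. mt-Tc and mt-Ty at 35 to 40 nt had overlapping levels, 5.79 ± 2.51 and 7.04 ± 5.37 RPM in PANDORA-seq and 4.86 ± 3.96 and 6.23 ± 5.45 RPM in traditional-seq. mt-Tw was short in both protocols, with 8.31 ± 5.52 RPM in PANDORA-seq and 481 ± 453 RPM in traditional-seq at 15 to 24 nt and at most 0.558 and 0.580 RPM at 35 to 40 nt. These length classes are given as levels without a test of their own.

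To ask which ends of a tRNA the fragments came from, reads of 15 to 42 nt were divided into 5′ fragments, which start at base 1 and end before the last encoded base, 3′ fragments, which start later and end at the last encoded base or in the CCA, and internal fragments. mt-Tw, the tryptophan tRNA, was read almost only as 3′ fragments in traditional-seq, 96.8% ± 1.5 of its reads (SD, n = 14, range 94.2% to 99.3%), but as 43.03% ± 17.09 (SD, n = 16, range 27.0% to 80.7%) in PANDORA-seq, where 50.4% ± 15.7 were internal. For mt-Ty the protocols differed the other way: 3′ fragments were 37.9% ± 19.6 of its reads in PANDORA-seq (range 11.97% to 79.8%) and 1.20% ± 0.85 in traditional-seq (range 0.211% to 2.72%), where 98.6% ± 1.03 were internal. The ranges of the 3′ share did not overlap between protocols for either tRNA. For mt-Ty this rested on the sequences that also occur in another transcript: without them, an alternative chosen after seeing the data, its 3′ share was 42.5% ± 20.2 in PANDORA-seq (range 13.6% to 85.02%) and 11.3% ± 6.64 in traditional-seq (range 1.93% to 24.96%), which overlapped (adjusted p = 1.5e-05 in the permutation test). These sequences mostly lie within bases 12 to 45 of mt-Ty, which makes them internal fragments, and leaving those out can only raise the 3′ share. Of the 15 shares of the cluster, 3 lay wholly lower and 4 wholly higher in PANDORA-seq, beside 21.2% and 25.8% of the 66 shares of all mitochondrial tRNAs.

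mt-Tn and mt-Tc had the largest 5′ shares. In mt-Tn 5′ fragments made up 17.6% ± 6.8 of the reads in PANDORA-seq (range 2.54% to 27.5%) and 1.49% ± 1.58 in traditional-seq (range 0% to 4.79%), with some overlap. In mt-Tc they made up 15.7% ± 6.4 (range 9.05% to 26.5%) and 6.10% ± 6.43 (range 0.931% to 20.9%). mt-Ta was internal in both protocols, 95.4% ± 1.58 and 99.4% ± 0.458 of its reads. In 2-sided permutation tests with 100000 shuffles, adjusted over the 66 shares of the 22 mitochondrial tRNAs, 14 of the 15 shares of the 5 tRNAs differed between protocols, beside 86.4% of the 66. The exception was the 3′ share of mt-Tn, 7.35% ± 2.29 and 8.77% ± 3.24 (adjusted p = 0.197 in the permutation test). The 5′ share of mt-Tc had an adjusted p of 0.000634, and the other 13 had 1.47e-05, the smallest that the shuffles gave after adjustment.

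The 5′ share of mt-Tc in traditional-seq rested partly on both libraries with high muscle miRNA hairpins. WT replicate 7 and AD replicate 4 had 5′ shares of 20.4% and 20.9%, and 37.69 and 35.98 RPM of the fragment of bases 1 to 29, whereas the other 12 libraries had 5′ shares of 0.931% to 7.10% and at most 7.94 RPM of that fragment. Without this pair, an alternative chosen after seeing the data, the share was 3.68% ± 1.98 (SD, n = 12) and the difference between protocols had an adjusted p of 1.53e-05 in the same permutation test. The part of muscle RNA in these values was not tested.

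A few positions of each tRNA held many of the starts and ends of its reads. Whether these ends arose in the tissue or during library preparation was not tested. In mt-Ty 48.8% of the traditional-seq reads started at base 12 and 28.6% at base 13, and 48.3% ended at base 31, the last base of the anticodon, and 35.3% at base 30. The fragment of bases 12 to 31 alone held 25.7% of that tRNA's reads there (387 ± 272 RPM, SD, n = 14), but 0.256% in PANDORA-seq (0.143 ± 0.217 RPM, SD, n = 16). The fragment of bases 51 to 69, by contrast, held 14.4% of its PANDORA-seq reads (7.10 ± 8.00 RPM) and at most 0.0891 RPM in traditional-seq, where 12 of 14 libraries had no read of it. In PANDORA-seq the reads of mt-Ty most often started at base 51 (22.7%) or 17 (14.5%) and ended at base 69 (27.9%), 29 (13.7%) or 49 (10.98%).

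In mt-Tw base 54, in the T arm, was the main start in both protocols, with 23.3% of PANDORA-seq and 56.9% of traditional-seq reads. The main ends after it were base 69 in PANDORA-seq (31.5%) and base 70 in traditional-seq (85.3%), and 27.7% of the PANDORA-seq reads ended at base 32, the first base of the anticodon. The fragment of bases 54 to 70 held 48.8% of the mt-Tw reads of traditional-seq (251 ± 273 RPM, SD, n = 14), and 15 of 16 PANDORA-seq libraries had no read of it. Most of its spread came from 1 library, AD replicate 6, with 1105 RPM, against 53.9 to 402 RPM in the other 13.

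In mt-Tn the fragment of bases 1 to 37, which ends at the first base after the anticodon loop, had 0.403 to 4.92 RPM in PANDORA-seq WT libraries and 1.23 to 11.8 RPM in AD libraries, 14.2% of the tRNA's reads. No traditional-seq library had a read of it, which allows levels of up to 0.176 to 0.320 RPM, depending on the library. The main start there was base 42 (22.3%) and the main end base 60 (20.9%). In mt-Ta reads of PANDORA-seq started at base 17 (20.5%) or 18 (15.4%) and ended at base 48 (32.1%), and reads of traditional-seq started at base 40 (32.1%) and ended at base 59 (27.5%), 58 (22.4%) or 55 (20.2%). In mt-Tc the main ends were near each other, base 55 in PANDORA-seq (17.2%) and bases 54 and 56 in traditional-seq (26.3% and 26.1%). The plot of coverage by base shows that the traditional-seq reads of mt-Ta and mt-Tw fell after the anticodon and those of mt-Ty before and within it.

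**Figure D2:**
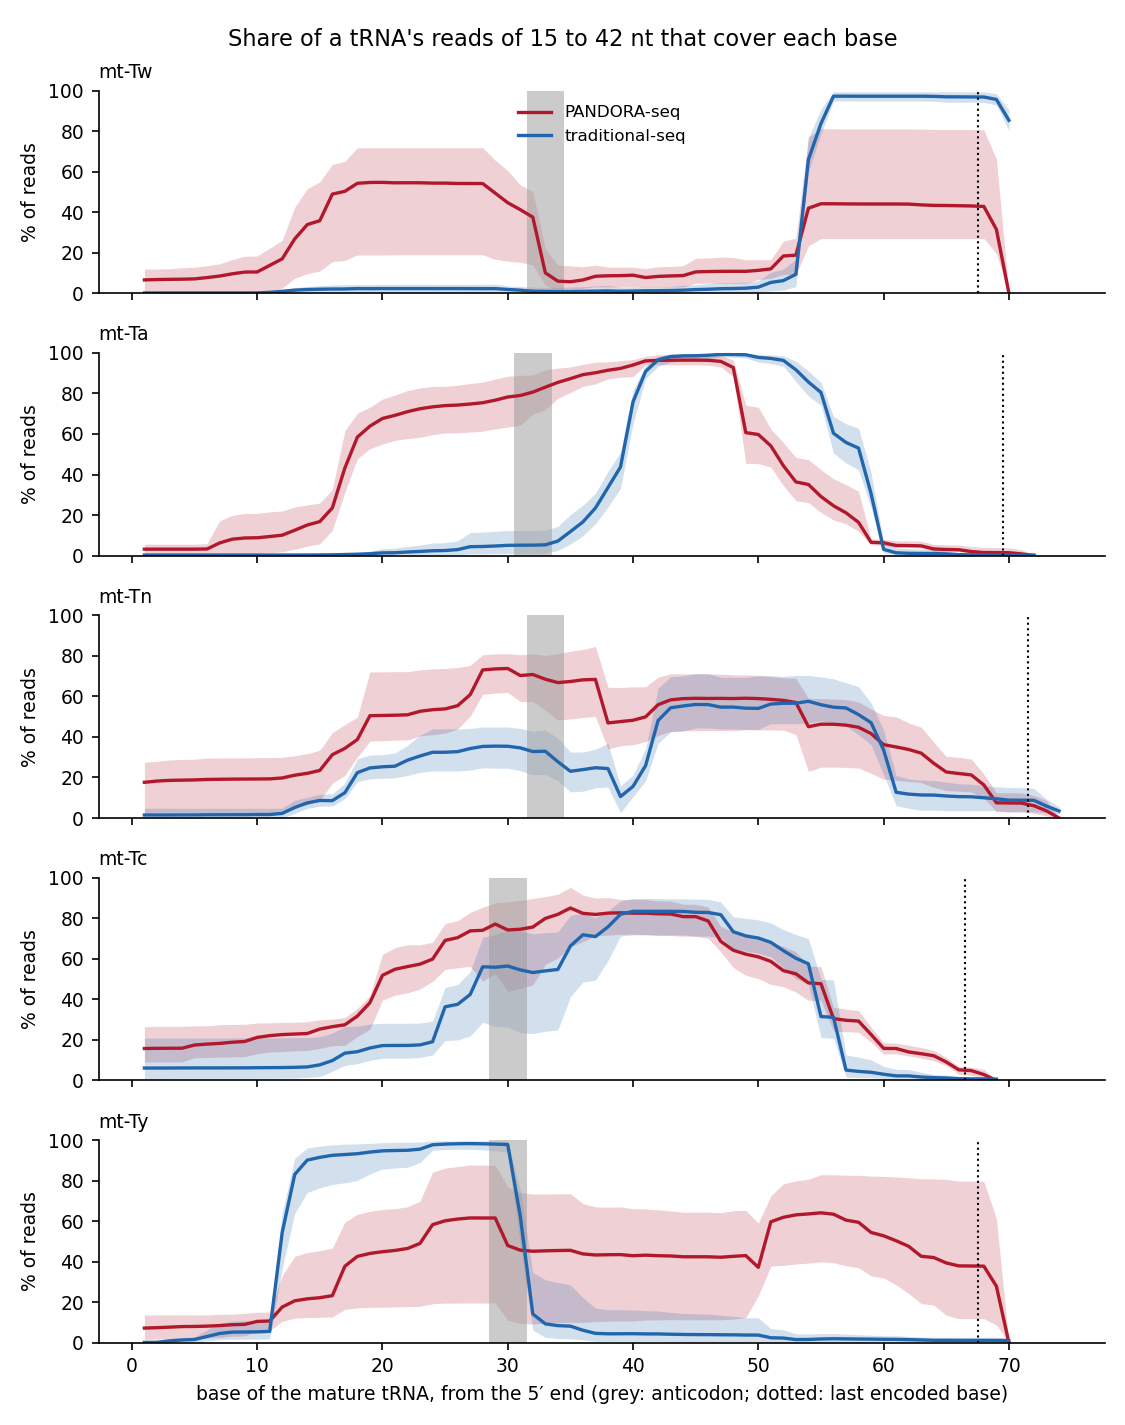
Percent of a tRNA's reads of 15 to 42 nt that cover each base of the mature tRNA, with the mean over libraries as a line and the range as shading (red, PANDORA-seq, 16 libraries; blue, traditional-seq, 14 libraries). Grey marks the anticodon and the dotted line the last encoded base. Coverage of traditional-seq is concentrated at the 3′ end of mt-Tw (96.8% of reads are 3′ fragments) and between bases 12 and 31 of mt-Ty, where PANDORA-seq spreads over the whole molecule.

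Sequences of mt-Ty need a remark, since its bases 12 to 45, 34 nt, also stand in a retained-intron transcript of Cep295, a nuclear gene, and the fragment of bases 12 to 31 lies within this stretch. 91.61% of the traditional-seq reads and 12.78% of the PANDORA-seq reads of mt-Ty had a sequence that also occurred in another transcript of the annotation. Of reads that overlapped this stretch by at least 10 bases and ran past it, 17308 in traditional-seq and 32702 in PANDORA-seq continued as the tRNA, and 6 and 51 continued as Cep295. For the other 4 tRNAs such shared sequences held at most 7.184% of the reads.

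The CCA end was measured among reads of 15 to 42 nt that reached the last encoded base. In traditional-seq it was complete on 88.1% ± 2.5 of such reads of mt-Tw (SD, n = 14, range 83.0% to 92.7%) and on 89.6% ± 7.4 of those of mt-Ty (range 70.7% to 97.7%). In PANDORA-seq it was complete on 0.0347% ± 0.0973 of the reads of mt-Tw (SD, n = 16, range 0% to 0.337%) and 0.125% ± 0.139 of those of mt-Ty (range 0% to 0.429%). The final A was thus nearly absent in every PANDORA-seq library and present on most reads in every traditional-seq library. Instead, 73.1% ± 5.6 of the mt-Tw reads and 73.4% ± 5.5 of the mt-Ty reads of PANDORA-seq ended in CC, and 26.3% ± 5.8 and 26.2% ± 5.4 in a single C. Both differences between protocols had an adjusted p of 1e-05, the smallest that 100000 shuffles can give, and 100% of the 11 tRNAs with at least 20 such reads in every library differed.

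mt-Ta, mt-Tn and mt-Tc had fewer than 20 such reads in at least 1 library and were not tested. Their full CCA made up 64.0% ± 17.6, 44.1% ± 17.5 and 73.5% ± 10.4 of the reads in traditional-seq (SD, n = 14) and 5.01% ± 7.94, 0.217% ± 0.624 and 0.219% ± 0.425 in PANDORA-seq (SD, n = 16). Of all matched reads, 7.09% to 14.7% ended in A in PANDORA-seq and 4.56% to 10.2% in traditional-seq. Among reads of the 5 tRNAs that ended before the last encoded base, 10.7% to 17.2% ended in A in PANDORA-seq and 20.9% to 42.4% in traditional-seq, without overlap. Why the final A was missing in PANDORA-seq was not tested. Between genotypes in PANDORA-seq, over reads of 15 to 45 nt, 0 of the 3 tRNAs of the cluster with enough reads differed in the full CCA share (exact permutation test), beside 0% of 16 mitochondrial tRNAs. In WT libraries the share was at most 0.337% for mt-Tw, 0.935% for mt-Tn and 0.332% for mt-Ty. A lower share in AD could thus hardly have been found.

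**Figure D3:**
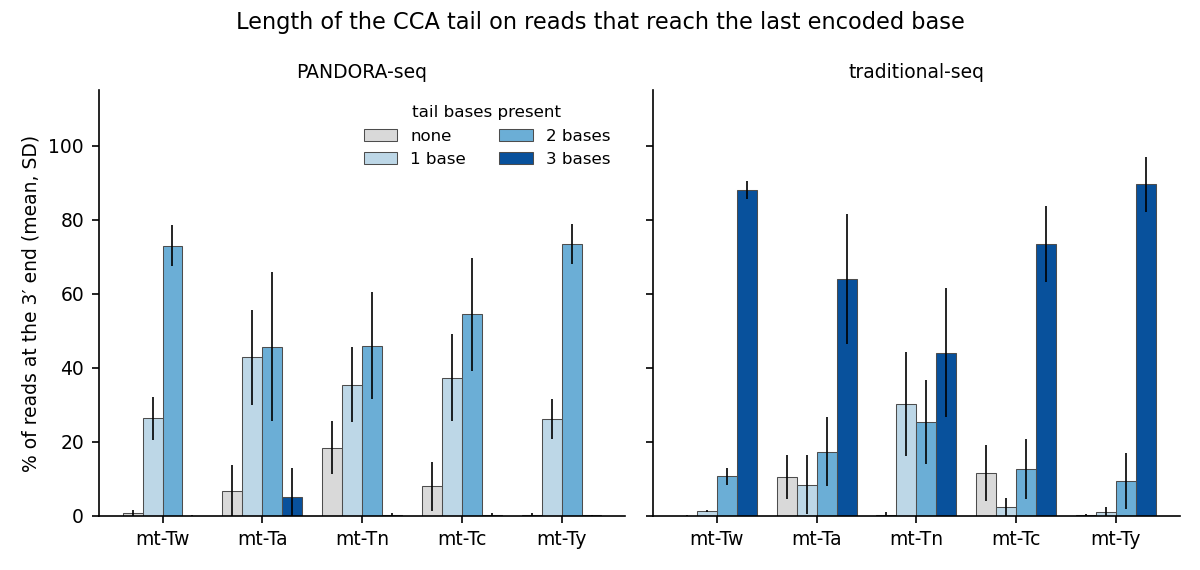
Percent of the reads that reach the last encoded base with no tail base or with 1, 2 or 3 bases of the CCA, as mean bars with SD over 16 PANDORA-seq libraries (left) and 14 traditional-seq libraries (right). The full tail of 3 bases is the main class of all 5 tRNAs in traditional-seq, with 88.1% for mt-Tw and 89.6% for mt-Ty, and in PANDORA-seq it is nearly absent for mt-Tw and mt-Ty and makes up 5.01% for mt-Ta, with up to 33.3% in a library.

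Bases that differ from the reference were counted on reads of 18 to 42 nt that matched with at most 1 mismatch, leaving out the first and last base of a read, and positions with at least 100 reads in at least 7 libraries of a protocol were ranked. The median position of each tRNA had 0.181% to 0.361% of reads with another base, and base 9 stood out in mt-Tn and mt-Ty. Base 9, between the acceptor and D arms, carries a methyl group in many mitochondrial tRNAs. In mt-Tn 45.6% ± 14.4 of the PANDORA-seq reads over base 9 had another base (SD, n = 16, range 20.4% to 79.8%), mainly A9G (the reference base, its position and the base read). In mt-Ty it was 15.7% ± 4.4 in PANDORA-seq (range 5.31% to 20.7%) and 30.2% ± 3.7 in traditional-seq (range 23.1% to 36.3%), each over 14 libraries with at least 100 reads there, mainly G9T. These ranges did not overlap, but how many positions of all mitochondrial tRNAs had ranges apart was not counted. mt-Tc had 2.74% ± 0.98 (14 libraries) and 4.95% ± 1.11 (12 libraries), mainly G9C, and mt-Ta 2.88% ± 2.07 in PANDORA-seq (12 libraries), mainly A9T, all far below mt-Tn and mt-Ty. The difference between protocols at base 9 was not tested, because fewer than 30 libraries had the coverage.

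Outside base 9, mt-Ta had 2.64% ± 1.13 at base 10 (G10A) and mt-Tw 4.34% ± 1.55 at base 24 (G24C) in PANDORA-seq (13 and 14 libraries). In PANDORA-seq the next positions were base 71 of mt-Tn with 2.09% ± 1.49 (10 libraries, G71C), base 58 of mt-Tw with 1.14% ± 1.03 (T58C), base 10 of mt-Ty with 1.06% ± 1.12 (G10A) and base 65 of mt-Tc with 0.789% ± 0.617 (T65C). In traditional-seq, base 26 of mt-Tc had 0.820% ± 0.399 (A26C) and the highest positions of mt-Tw (T66C, T57C), mt-Ta (T58C, A54G) and mt-Tn (G29T, T52C) had 0.604% to 0.803%. Some positions had the coverage in fewer than 7 libraries and were not ranked, among them base 9 of mt-Tw (4.55% ± 2.94 over 6 PANDORA-seq libraries, mainly A9G), base 66 of mt-Tc (10.1% ± 5.4 over 6 PANDORA-seq libraries, mainly T66A) and base 24 of mt-Tw (14.1% ± 5.9 over 4 traditional-seq libraries, mainly G24C), which were picked after their values were seen.

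Base 32 of mt-Ty, next to the anticodon, had another base in 12.9% ± 9.6 of the traditional-seq reads (SD, n = 14, range 1.14% to 30.5%), mainly A32C, and in 0.359% ± 0.330 of the PANDORA-seq reads. Of 1559 traditional-seq reads with this C, 1554 (99.679%) ended at base 33, the next base. Whether this C was a changed base or began an unencoded end after base 31, as in reads described below, was not tested. Of positions with at least 100 reads in each of the 30 libraries, 30 of 101 in the cluster differed between protocols by permutation test, beside 38.3% of 530 in all mitochondrial tRNAs. Apart from base 32 of mt-Ty (adjusted p = 7.36e-05) the means at these 30 positions were at most 1.08%. Between genotypes in PANDORA-seq 0 of 193 positions differed (exact permutation test), beside 0% of 993.

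**Figure D4:**
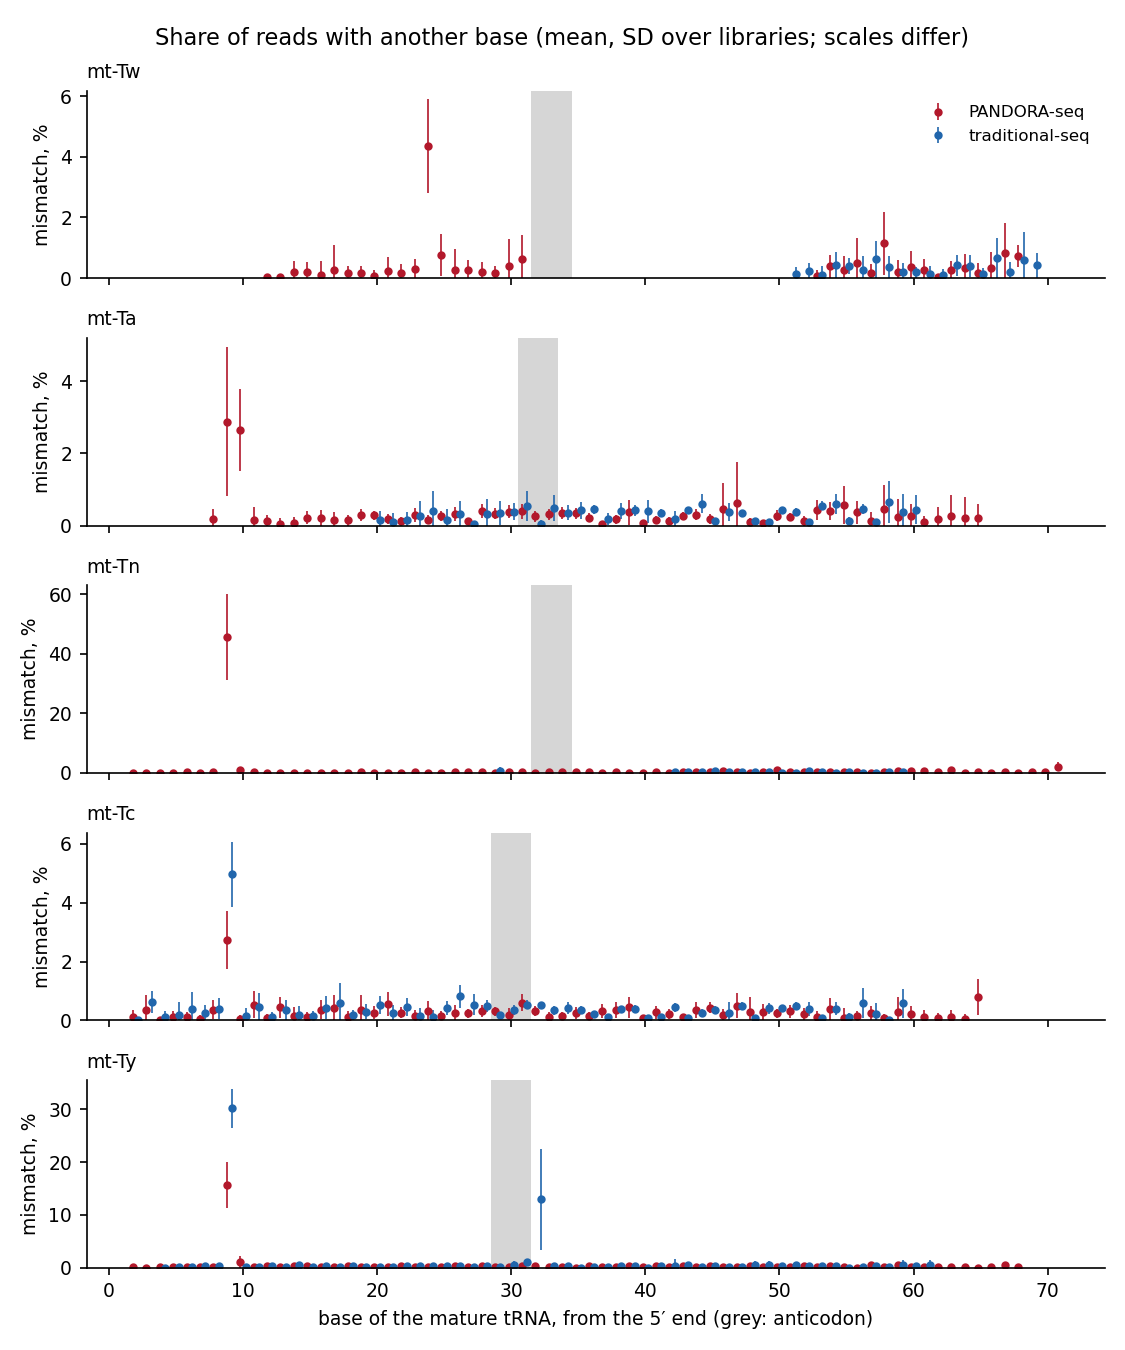
Percent of reads with a base other than the reference at each base of the 5 tRNAs, as mean and SD over the libraries with at least 100 reads there, for positions with at least 7 such libraries (red, PANDORA-seq; blue, traditional-seq; grey, anticodon), with a vertical scale of its own for each tRNA. Among these positions base 9 is the highest of mt-Tn (45.6% in PANDORA-seq), mt-Ty (15.7% and 30.2%), mt-Tc and mt-Ta in PANDORA-seq, and base 24 of mt-Tw.

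Between genotypes, the total level of none of the 5 tRNAs was found to differ. In PANDORA-seq, edgeR called 0 of the 5 tRNAs lower or higher in AD (0 with an unadjusted p under 0.05, and 0 by the likelihood ratio test and by DESeq2), beside 4.08% of 1104 RNAs called lower and 0.634% called higher. In bulk tissue, fewer cells of a type and less RNA per cell cannot be told apart. mt-Ta was at 15.2 to 81.2 RPM in WT (median 41.6) and 11.7 to 63.6 RPM in AD (median 34.3), a log2 difference (AD minus WT) of -0.11 with a 95% interval of -0.67 to 0.44. mt-Tc was at 8.82 to 34.5 RPM in WT (median 20.96) and 4.11 to 29.6 RPM in AD (median 17.4), a difference of -0.19 (-0.72 to 0.35). WT and AD libraries overlapped over most of their range for both.

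mt-Tn was at 10.7 to 31.04 RPM in PANDORA-seq WT (median 20.5) and 8.88 to 53.6 RPM in AD (median 20.6), a difference of 0.28 (-0.25 to 0.81). mt-Tw was at 3.23 to 17.3 RPM in WT (median 6.64) and 2.97 to 24.6 RPM in AD (median 11.2), a difference of 0.41 (-0.36 to 1.17). mt-Ty was at 18.4 to 123 RPM in WT (median 35.6) and 10.3 to 94.1 RPM in AD (median 46.1), a difference of -0.02 (-0.74 to 0.70). Without the 3 AD libraries of highest muscle miRNA hairpin level, an alternative chosen after seeing the data, 0 of the 5 were called either, and the differences ranged from -0.14 for mt-Tc to 0.72 for mt-Tw. Of the other mitochondrial RNAs in PANDORA-seq, 1 of 4 other - strand tRNAs and 2 of 13 other + strand tRNAs were called lower, none higher, and neither rRNA was called.

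In traditional-seq 0 of the 5 tRNAs were called (0 with an unadjusted p under 0.05 in edgeR, and 0 by the likelihood ratio test and by DESeq2), beside 0% of 660 RNAs. The log2 differences (AD minus WT) were 0.08 for mt-Ta (-0.47 to 0.64), -0.11 for mt-Tc (-0.62 to 0.41), -0.16 for mt-Tn (-0.79 to 0.48), 0.09 for mt-Tw (-1.10 to 1.28) and -0.06 for mt-Ty (-0.995 to 0.881). The median levels of mt-Tw were 603 RPM in WT and 311 RPM in AD, but their ranges, 102 to 761 and 173 to 1848 RPM, overlapped. Without AD replicate 6, the library at 1848 RPM, the difference of mt-Tw was -0.80, which the test did not call either. For none of the 5 was the difference between genotypes found to differ between protocols (interaction term of edgeR). The test called 0 of them beside 0% of 1201 RNAs, with differences of -0.30 to 0.34. It used reads of 15 to 42 nt, so that longer PANDORA-seq reads were left out. The interaction of mt-Tw, 0.19, ranged from -0.0654 to 1.06 when single libraries were left out.

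Shares of 5′, 3′ and internal fragments were compared between genotypes by exact permutation tests, here over all reads of 15 to 45 nt. In PANDORA-seq 0 of the 15 shares of the cluster were called, beside 10.6% of the 66 of all mitochondrial tRNAs. The nearest was the 3′ share of mt-Tc, 5.50% ± 1.01 in AD (range 3.75% to 6.83%) and 7.65% ± 1.61 in WT (range 5.25% to 9.66%), with overlapping ranges and an adjusted p of 0.0615 in the exact permutation test. Over reads of 18 nt or longer its adjusted p was 0.0423. Over reads of 15 to 42 nt only, an alternative chosen after seeing the data, the share was 5.17% ± 0.988 in AD and 5.28% ± 0.869 in WT (adjusted p = 0.967, exact permutation test). Without the 3 AD libraries of highest muscle hairpin level 0 of the 15 were called. In traditional-seq 0 of 15 were called, beside 0% of 66.

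Single sequences were compared last. Of the 3663 sequences, 169 had enough reads to be tested in PANDORA-seq (10 of mt-Tw, 51 of mt-Ta, 27 of mt-Tn, 31 of mt-Tc and 50 of mt-Ty). Called with an adjusted p below 0.05 in edgeR and more than a 2-fold change, 6 of the 169 were lower in AD and 0 were higher, beside 4.90% of 20122 sequences called lower and 0.174% called higher, and nothing particular to the cluster was read from this count. The 6 are printed because they are the called sequences, and they are long: 4 are 45 nt, 1 is 44 nt and 1 is 42 nt. Each runs across the whole anticodon, shown in capitals with the CCA bases. In tRNAs of this size nearly any stretch that long does so.
mt-Ta bases 14 to 58: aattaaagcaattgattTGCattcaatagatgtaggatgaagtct
mt-Tn bases 27 to 68: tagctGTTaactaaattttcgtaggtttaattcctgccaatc
mt-Ty bases 25 to 69: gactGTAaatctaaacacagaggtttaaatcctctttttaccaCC
mt-Ty bases 24 to 68: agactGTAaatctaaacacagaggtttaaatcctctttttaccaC
mt-Ty bases 25 to 68: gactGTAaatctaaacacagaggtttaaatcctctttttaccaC
mt-Ty bases 17 to 61: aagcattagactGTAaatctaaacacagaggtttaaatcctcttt

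The fragment of bases 25 to 69 of mt-Ty had 0.185 to 1.20 RPM in WT (median 0.651) and 0 to 0.0607 RPM in AD (median 0.0109), a log2 difference of -4.95 (SE 0.60, edgeR, adjusted p = 2.29e-05). The fragment of bases 24 to 68 had 0.517 to 2.78 RPM in WT (median 1.52) and 0.0109 to 0.437 RPM in AD (median 0.0394), a difference of -4.19 (SE 0.63, edgeR, adjusted p = 0.000198). In both, every WT library was above every AD library, as in 2.13% of all 20122 sequences. The shorter form of bases 25 to 68 had 0.0246 to 0.967 RPM in WT and 0.0109 to 0.206 RPM in AD (-3.10, SE 0.60, edgeR, adjusted p = 0.00207). Bases 17 to 61 of mt-Ty had 0.234 to 3.31 RPM in WT and 0.0546 to 0.501 RPM in AD (-2.68, SE 0.53, edgeR, adjusted p = 0.00286). These 4 fragments of mt-Ty overlap one another over bases 25 to 61 and are not independent of each other.

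The fragment of bases 14 to 58 of mt-Ta had 0.0493 to 1.38 RPM in WT (median 0.395) and 0 to 0.121 RPM in AD (median 0.0303), a difference of -3.97 (SE 0.68, edgeR, adjusted p = 0.00078). Bases 27 to 68 of mt-Tn had 0.123 to 0.674 RPM in WT (median 0.294) and 0 to 0.246 RPM in AD (median 0.0686), a difference of -1.95 (SE 0.53, edgeR, adjusted p = 0.0348). In both, the genotypes overlapped, and the call of mt-Tn was lost with library size in place of TMM (adjusted p = 0.0904 in edgeR), without the filter (0.0633), without ambiguous sequences (0.0576) and in 10 of 16 fits that left out 1 library. Without the 3 AD libraries of highest muscle miRNA hairpin level, 18 of 236 sequences of the cluster tested were lower in AD and 1, a fragment of mt-Tw, higher, beside 1742 lower and 77 higher of 23319. Of the 6 printed, 5 kept their calls and directions, and that of mt-Tn did not (-1.98, edgeR, adjusted p = 0.0718). The part of muscle RNA in these values was not tested.

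These calls moved with read length. Of the 14 tested sequences of the cluster of 43 to 45 nt, 5 were lower in AD (35.7%), beside 47.0% of 1860 such sequences of all RNAs. At 41 to 42 nt it was 1 of 17 (5.88%), beside 3.52% of 1650, and at 15 to 40 nt 0 of 138, beside 0.313% of 16612. The median log2 difference was 0.20 at 15 to 40 nt, -0.54 at 41 to 42 nt and -1.65 at 43 to 45 nt in the cluster, and 0.23, -0.35 and -2.07 over all sequences tested. As given above, the share of 43 to 45 nt reads in the whole library was lower in every AD library than in every WT library, and its part in these calls was not tested beyond the length classes.

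Summed over reads of 43 to 45 nt, mt-Ty had 2.11 to 16.8 RPM in WT (median 9.56) and 0.328 to 4.59 RPM in AD (median 2.64), and mt-Ta 0.874 to 5.31 RPM (median 3.39) and 0 to 1.08 RPM (median 0.446). mt-Tn had 0.160 to 1.14 RPM in WT (median 0.654) and at most 0.109 RPM in AD, and mt-Tc 0.529 to 3.28 RPM and 0.0546 to 1.25 RPM. The AD mean of mt-Tn, 0.0339 RPM, lay within the levels that 3 reads give in these libraries (0.0283 to 0.0546 RPM), so its AD values rest on few reads. mt-Tw had at most 0.152 RPM in either. When only reads of 43 to 45 nt were fitted, scaled to each other by TMM, 1 of the 4 tRNAs tested was called, mt-Tn, lower in AD by a log2 difference of -2.36 (edgeR, adjusted p = 0.000494), beside 87 of 369 RNAs called lower and 71 higher. In that fit mt-Ty and mt-Tc had differences of 0.36 and 0.36 and mt-Ta one of -0.70 (edgeR, adjusted p = 0.184), which were not called.

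**Figure D5:**
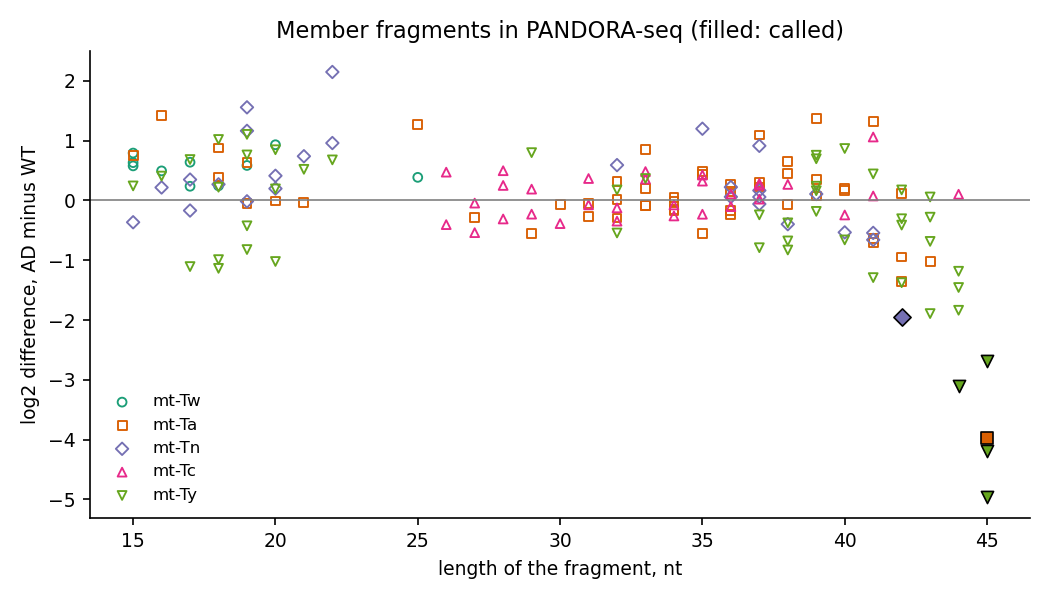
Log2 difference (AD minus WT) of each of the 169 tested fragments of the cluster in PANDORA-seq against its length in nucleotides, with 1 symbol per tRNA and filled symbols for the 6 called fragments. Fragments of 15 to 40 nt lie on both sides of 0, with a median of 0.20 and 37.7% of them below 0, and none is called. The called ones, with differences of -1.95 to -4.95, lie at 42 to 45 nt.

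In traditional-seq, where no read exceeds 42 nt, 0 of 253 tested sequences of the cluster were called (0 with an unadjusted p under 0.05 in edgeR, and 0 by the likelihood ratio test and by DESeq2), beside 0% of 4238. No traditional-seq library had a read of the mt-Ta fragment or of the 4 mt-Ty fragments above, which are longer than any read of those libraries, and 1 of 14 libraries had reads of bases 27 to 68 of mt-Tn (0.0843 RPM).

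Across libraries, the tRNAs of the cluster varied together in PANDORA-seq, with Pearson's r between their log2 RPM of 0.37 (mt-Tw and mt-Tn) to 0.88 (mt-Ta and mt-Tc) over 16 libraries, a description of values that share the library and its depth. In traditional-seq r ranged from -0.34 (mt-Tn and mt-Ty) to 0.76 (mt-Tw and mt-Tn) over 14 libraries, and neighbours such as mt-Tc and mt-Ty had -0.04. Of 338 other RNAs with a mean of at least 10 RPM in PANDORA-seq, those most like the sum of the 5 tRNAs were mt-Tl2, a leucine tRNA of the + strand (r = 0.93), Mir185 (r = 0.90) and Snord72, a small nucleolar RNA (r = 0.89). In traditional-seq, among 332 RNAs, they were the miRNAs Mir708 (r = 0.84), Mir873a (r = 0.69) and Mir598 (r = 0.67). The mitochondrial rRNAs held ranks 120 (mt-Rnr2, r = 0.60) and 159 (mt-Rnr1, r = 0.51) in PANDORA-seq and 199 (mt-Rnr2, r = -0.00118) and 278 (mt-Rnr1, r = -0.23) in traditional-seq.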

How the data were processed

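The authors deposited, for each library, a list of the distinct trimmed sequences with how often each was read, as raw counts without normalization or annotation. According to the study's methods reads were annotated with the SPORTS pipeline, 15 to 45 nt were kept and edgeR with TMM and a likelihood ratio test was used. The labels name the build mm39. The deposited counts carry no coordinates. Libraries were grouped by protocol and genotype from their titles.

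Whole sequences were matched without mismatch, in the sense direction, to 6112 small and mitochondrial RNAs of GENCODE vM21 (GRCm38), in which the mitochondrial tRNAs were given their CCA. Where several RNAs held a sequence, it went to miRNA, mitochondrial rRNA, mitochondrial tRNA, nuclear rRNA, nuclear tRNA and other RNA in that order. Most nuclear tRNAs and the large nuclear rRNAs were not in this reference. Members and gene lists were chosen with earlier results of these data known. Named items are the 5 tRNAs, per tRNA and protocol the sequence of highest mean RPM and the 2 positions of highest mismatch share, every called sequence (at most 5 per tRNA), and per protocol the 3 other RNAs most correlated with the sum of the 5.

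edgeR 4.0.16 in R 4.3.3 fitted all RNAs, or all sequences with at least 10 reads, after filterByExpr (count 10, total 15), with TMM within a protocol and library size between protocols, by the quasi-likelihood test with Benjamini-Hochberg adjustment. Sequences had to pass both an adjusted p of 0.05 and a 2-fold change. Shares were tested 2-sided by exact permutation over 12870 splits of 8 against 8 libraries (smallest p 0.0001554) or 3432 of 7 against 7 (smallest p 0.0005828), by 100000 shuffles between protocols (smallest p 1e-05), and levels by exact sign flips with a pseudocount of 0.01 RPM per nt (smallest p 3.052e-05 over 16 and 0.0001221 over 14 libraries). Reads were tabulated in Python 3.11.15 (pandas 2.3.3, numpy 2.4.6) and plotted with matplotlib 3.10.9. On simulated counts with 200 sequences or RNAs changed 4-fold, 23 of 173 changed sequences that passed the filter were called among 20122 in PANDORA-seq and 65 of 166 among 4238 in traditional-seq, and 180 of 190 changed RNAs among 1104 and 170 of 182 among 660, so that a 4-fold change of a single sequence was mostly missed.

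Depth was 9370669 to 105876141 reads per library. Reads carry no molecular identifiers, so floors given as 3 reads cover counting error only. The study counts each library of a group as a mouse, and p-values measure the spread between libraries. The file names carry a code that 14 pairs of libraries share across protocols, so these may be the same mice, which the labels do not say, and the tests between protocols treated all 30 libraries as independent. Same-numbered WT and AD libraries were no more alike than others (correlation of deviations -0.459 to 0.446 in PANDORA-seq and -0.500 to 0.563 in traditional-seq), so numbers were not used as pairs. No 2 libraries agreed within counting noise (lowest chi-square per degree of freedom 256). Alternatives were DESeq2 1.42.0, the likelihood ratio test of edgeR, other scalings, filters, read lengths, fragment definitions, coverage minimums and pseudocounts, the replicate number as a block, pairing by file-name code, ambiguous sequences left out and each library left out in turn. Chosen after seeing the data were leaving out sequences found in any other transcript (levels and fragment shares), pairing the shares and mismatch positions by that code, fragment shares of 15 to 42 nt between genotypes, adding sequences with 1 mismatch between protocols, and leaving out the pair of traditional-seq libraries, or the 3 PANDORA-seq libraries, with high muscle hairpins.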

Additional observations from a re-analysis of the deposited data

Results flagged for a closer look

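In 15 of 63 groups of 7 or 8 libraries checked, the highest value lay apart from the others by Dixon's criterion. Its rate of about 1 in 20 by chance holds for normally distributed values. Here RPM was used without a log, and fragments share reads with their tRNA. The count was therefore not read against that rate. PANDORA-seq WT replicate 6 lay apart with 122.711 RPM of mt-Ty (next library 57.9 RPM), 276.56 RPM of the 5 tRNAs together (next 168 RPM), 13.5608 RPM of bases 17 to 48 of mt-Ta (next 4.52 RPM) and 6.3777 RPM of bases 54 to 69 of mt-Tw (next 2.18 RPM). Traditional-seq AD replicate 6 lay apart with 1847.79 RPM of mt-Tw (next 419.782 RPM), and with 1105.04 RPM of its bases 54 to 70 (next 167 RPM) and 207.776 RPM of its bases 54 to 69 (next 22.3 RPM). Traditional-seq WT replicate 3 lay apart with 2901.62 RPM of mt-Ty (next 1522 RPM).

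The 5′ fragment of mt-Tc, bases 1 to 29, lay apart in 4 libraries, one in each group. It had 2.84346 RPM in PANDORA-seq AD replicate 5 (next 0.928 RPM), 2.79466 RPM in PANDORA-seq WT replicate 4 (next 1.33 RPM), 35.9837 RPM in traditional-seq AD replicate 4 (next 7.12 RPM) and 37.6903 RPM in traditional-seq WT replicate 7 (next 7.94 RPM). The latter pair had the highest muscle miRNA hairpin levels, whose part in this was not tested. In PANDORA-seq AD replicate 6, the long mt-Ty fragments of bases 24 to 68 and 25 to 68 lay apart with 0.437146 RPM (next 0.123 RPM) and 0.20643 RPM (next 0.0472 RPM), and in AD replicate 5 the fragment of bases 51 to 69 of mt-Ty had 32.6696 RPM (next 13.8 RPM).

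Reads with a CCA that the gene does not encode lay outside the matching used above. In traditional-seq 12695 reads of mt-Ty were cut in the anticodon loop and continued with CCA in place of the encoded bases, in 14 of 14 libraries. Of them, 12600 were cut after base 31, the last base of the anticodon. A cut here means only the place where the encoded bases of a read end. Only trinucleotides whose first base differed from the next encoded base were counted, so not all 64 could be seen at every cut. After base 31, where the next base is A, those starting with A were left out. Of 14425 such reads of mt-Ty cut anywhere in the loop, CCA followed the most, and AAA came next with 239 reads. At cuts elsewhere in mt-Ty CCA followed 0 reads in either protocol. The 3 most frequent of these sequences are printed to show the join, with the unencoded CCA in capitals.
mt-Ty bases 7 to 31 with CCA: atggctgagtaagcattagactgtaCCA
mt-Ty bases 6 to 31 with CCA: aatggctgagtaagcattagactgtaCCA
mt-Ty bases 13 to 31 with CCA: gagtaagcattagactgtaCCA
They had 3998, 3689 and 2102 reads over all libraries, and 8732 of the 12701 reads cut at base 31 of both protocols started before base 12. Per traditional-seq library they made up 26.6 to 124 RPM, 31.2 to 113 RPM in WT and 26.6 to 124 RPM in AD, with overlap. Of the reads cut at base 31 with or without the CCA, they made up 2.94% to 18.6% in a library. In PANDORA-seq there were 102 such reads of mt-Ty in 16 of 16 libraries. For mt-Tw, 41 traditional-seq and 4 PANDORA-seq reads were cut in the anticodon loop, all after base 34, and continued with CCA, for mt-Tn 1 and 0, and for mt-Ta and mt-Tc 0 in both protocols. At cuts outside the loop a CCA that is not encoded followed 71 traditional-seq reads of mt-Ta and 57 of mt-Tc, each in 13 of 14 libraries, 18 of mt-Tn in 7 of 14 libraries and 0 of mt-Tw, and 5, 14, 4 and 0 reads in PANDORA-seq. All these counts leave out cuts whose next encoded base is C, as within the anticodons of mt-Tw, mt-Ta and mt-Tc. A count of 0 thus says nothing about such cuts. No test was made of these counts, and why these reads carry a CCA was not tested.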

How the results depend on the processing

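Over 15 comparison results, each a count of calls, 79 counts under alternatives equalled the main count or lay within 1.5 times of it. Beyond that, 4 were higher and 3 lower. The main fit in edgeR called 6 of 169 sequences of the cluster lower in AD in PANDORA-seq, beside 985 of all 20122. Without a filter beyond 10 reads 38 of 1417 were lower, beside 2602 of 93996. With reads of 15 to 40 nt only it was 0 of 138, beside 19 of 16743. The likelihood ratio test called 7 lower and 1 higher, beside 1254 and 157 of 20122. DESeq2 called 8 lower and 0 higher, beside 1371 and 199. Without the 3 AD libraries of highest muscle hairpin level 18 of 236 were lower and 1 higher, beside 1742 and 77 of 23319. Over reads of 43 to 45 nt 1 tRNA was called between genotypes, over reads of 18 nt or longer 1 fragment share, over reads of 25 nt or longer 0 CCA shares of the cluster (4 tRNAs, none of the cluster, had enough reads), and at the higher coverage minimum 0 mismatch positions (none of the cluster was tested). Leaving out 1 library at a time gave 5 to 11 called sequences in PANDORA-seq, with 11 without WT replicate 7 or AD replicate 1 and 10 without AD replicate 5, 6 or 8, 0 to 1 fragment shares between genotypes in PANDORA-seq, with 1 without WT replicate 4, WT replicate 7 or AD replicate 6, 2 to 3 CCA shares, 2 to 3 differing neighbours in traditional-seq and 28 to 34 mismatch positions. Over all sequences the fits of PANDORA-seq without 1 library called 841 to 1265 lower and 14 to 79 higher. With the replicate number as a block, 7 sequences of the cluster were called in PANDORA-seq, beside 1066 lower and 13 higher of 20122. The small differences of mt-Tw and mt-Ty in traditional-seq then turned to -0.36 and 0.0214. The numbers share no more than the number, and the block changed no other count of calls among the 5 tRNAs and their fragments by over 1.5 times. Over all features in PANDORA-seq it lowered the calls higher in AD from 35 to 13 sequences and from 7 to 1 RNAs. The log2 difference of mt-Ty in PANDORA-seq, -0.02, turned to 0.0351 without the filter, 0.18 at 15 to 40 nt, 0.0041 from 18 nt, 0.36 at 43 to 45 nt, 0.0272 without ambiguous sequences, 0.14 without the 3 libraries of highest muscle hairpin level and 0.0878 without sequences found in another transcript. That of mt-Ty in traditional-seq, -0.06, turned to 0.0465 with library size, 0.10 without the filter and 0.0557 without ambiguous sequences, its interaction turned to 0.0648 with TMM, and that of mt-Tw in traditional-seq turned to -0.14 from 18 nt. At 43 to 45 nt mt-Tc turned to 0.36 and mt-Tn to -2.36 in PANDORA-seq, and between protocols mt-Tn was -0.23 with TMM and 1.32 with matched reads as library size. The call of bases 27 to 68 of mt-Tn was lost with library size (-1.89), without the filter (-1.90), without ambiguous sequences (-1.86), without the 3 libraries of highest muscle hairpin level (-1.98) and in 10 of 16 fits without 1 library (range -2.32 to -1.79). Differences between genotypes that changed sign when 1 library was left out were uncalled and ranged, in PANDORA-seq, from -0.22 to 0.0393 for mt-Ta and -0.23 to 0.28 for mt-Ty, in traditional-seq from -0.19 to 0.0273 for mt-Tc, -0.27 to 0.0096 for mt-Tn, -0.80 to 0.26 for mt-Tw and -0.30 to 0.34 for mt-Ty, and in the interaction from -0.26 to 0.048 for mt-Tc, -0.0654 to 1.06 for mt-Tw and -0.36 to 0.43 for mt-Ty. The cause of these changes was not tested. The 4 tRNAs other than mt-Tn kept their lower call in PANDORA-seq under every alternative run, including pairing by file-name code. Paired by that code in exact sign-flip tests, 14 fragment shares, 2 CCA shares and 27 mismatch positions of the cluster differed between protocols, against 14, 2 and 30 unpaired. Depth limits single sequences: 3 reads are 0.0283 to 0.0546 RPM in PANDORA-seq and 0.176 to 0.320 RPM in traditional-seq.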
